A study of Mus musculus with 12 samples.

Results

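Kcng4 and 7 related potassium channel subunit genes were followed through spinal cord RNA from 12 mice. The genes were taken by symbol: the modifier subunits Kcng1, Kcng2, Kcng3, Kcng4, Kcns1, Kcns2 and Kcns3, and Kcnb2, which encodes a Kv2 channel. They are 8 of the 38924 genes in the expression tables, where they fill 9 rows because Kcnb2 is listed under a pair of gene identifiers. Kcng4 was selected on its measured difference between genotypes in these libraries, so its genotype values are a description with no test. The other 7 genes were taken for their kinship with it, and their differences were tested over all 17994 genes with enough counts. All 8 passed that filter.

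The study compared whole spinal cord, taken at 1 week of age before the onset of disease, from wt mice and from mice heterozygous for Gars P278KY, an allele of the glycyl-tRNA synthetase gene. All mice had the strain background B6J;CAST, and each genotype had 3 females and 3 males by label. Dominant mutations of this gene cause peripheral neuropathy, and the allele is carried by every cell of the mouse, with no Cre or transgene. Libraries are named by sex, genotype and mouse number.

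Kcng and Kcns subunits are called silent, because alone they form no working channel. They join Kv2 subunits, such as that encoded by Kcnb2, in mixed tetramers, and change the voltage range and the speed at which the delayed rectifier current opens, closes and inactivates. Kv2 channels sit in clusters on the cell body and proximal dendrites of neurons, motor neurons among them, and shape repetitive firing. Kcng4, the gene of Kv6.4, is known as a gene of fast motor neurons, where the surface protein Dlk1 has been described to raise it.

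Libraries held between 27713981 and 43219891 expected counts. Levels are given as CPM, the count of a gene scaled to the size of its library, or as TPM, which also takes length into account. Gars mRNA was read in every library, at 117 to 135 CPM in wt and 121 to 140 CPM in P278KY, and since the allele changes the protein, this level does not check the genotype labels. Xist, the X-inactivation RNA, was at 762 to 1113 CPM in the 5 females that matched their label, but at 0.533 CPM in female wt 14, where the Y-linked gene Ddx3y reached 45.1 CPM. The reverse held in male wt 19, with Xist at 860 and Ddx3y at 0.0233 CPM. Both are labelled wt. Values by sex follow the labels, and results that rest on these 2 libraries are given with and without them. Female wt 14 also held markers of sensory ganglion neurons at 297 CPM summed over the list, against at most 14.7 CPM in the other 11 libraries.

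The stretches just before the annotated starts of Kcng4 and Kcns1 are shown, since these are the members whose genotypes did not overlap on the CPM scale, Kcng4 over all libraries and Kcns1 in males. Both are 250 bases long and come from RefSeq on GRCm38.p6, read on the minus strand, at chr8:119635681-119635930 for Kcng4 and at chr2:164171114-164171363 for Kcns1. Capitals mark every match, on either strand, to the E-box CANNTG and to the homeodomain core TAAT.
Kcng4: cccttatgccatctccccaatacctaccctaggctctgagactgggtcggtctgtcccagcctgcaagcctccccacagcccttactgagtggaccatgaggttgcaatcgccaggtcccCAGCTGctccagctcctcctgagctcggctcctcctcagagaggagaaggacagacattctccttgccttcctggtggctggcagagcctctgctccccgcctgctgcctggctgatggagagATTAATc
Kcns1: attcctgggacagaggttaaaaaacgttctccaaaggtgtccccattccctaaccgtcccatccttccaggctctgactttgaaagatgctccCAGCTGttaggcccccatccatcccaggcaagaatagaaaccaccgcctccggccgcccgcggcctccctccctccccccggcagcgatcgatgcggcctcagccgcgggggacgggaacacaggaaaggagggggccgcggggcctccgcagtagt

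Each stretch held 1 E-box match, starting 130 bases before the start of Kcng4 and 157 before that of Kcns1, and both read CAGCTG. Of 32841 RefSeq promoter stretches of this length, 66.2% held the E-box letters. Kcng4 had 2 overlapping TAAT matches, 1 on each strand, beginning 7 and 5 bases before the start, and 54.9% of all stretches held at least 1. Kcng4 also held 1 CCAAT, found in 33.9% of stretches, and Kcns1 held 1 GGGCGG, found in 32.7%. Neither held TGATGNAA, the core of the ATF4 and CHOP element, found in 3.45%, or TATAAA, found in 12.4%. The Kcng4 stretch had 60.4% G and C and that of Kcns1 63.2%, above the median of 52.4% over all stretches. RefSeq stretches were used for 4 of the 8 members, and chromosome 18, which holds Kcng2, was left out of the search. A match is a description of letters and shows no factor bound there.

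Kcng4 (ENSMUSG00000045246) lies on chromosome 8, from 119623854 to 119635680 on the minus strand of GRCm38, and no other annotated gene overlaps it. Gars is on chromosome 6. In wt mice Kcng4 was at 6.31, 5.62 and 8.66 CPM in females 1, 2 and 14, and at 6.77, 6.73 and 7.63 CPM in males 6, 9 and 19. In P278KY mice it was at 3.24, 3.53 and 3.36 CPM in females 4, 7 and 10, and at 4.82, 5.55 and 5.48 CPM in males 3, 5 and 13. All 6 P278KY libraries lay below all 6 wt libraries, which by itself fixes the same order within each sex. Within a sex that order was seen for 7.55% of all genes in females and 5.85% in males. The gap between the nearest libraries was small, from 5.55 CPM in male P278KY 5 to 5.62 CPM in female wt 2.

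**Figure D1:**
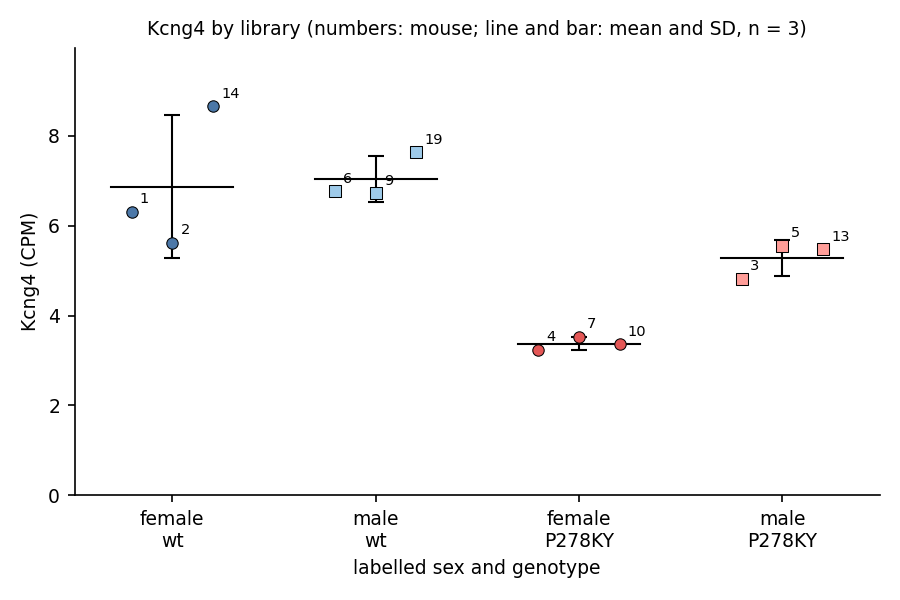
Kcng4 level in CPM (vertical axis) in each library, by labelled sex and genotype; points are mice with their number, lines and bars are the mean and SD of 3. The 3 P278KY females sit lowest, at 3.24 to 3.53 CPM, and the P278KY males, at 4.82 to 5.55 CPM, lie between them and the wt libraries.

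The means were 6.95 ± 1.06 CPM for wt and 4.33 ± 1.08 CPM for P278KY (SD, n = 6 each). The fitted difference, P278KY minus wt with sex as a term, was -0.72 ± 0.14 on the log2 scale (SE), a fold of 0.609. On the TPM scale the means were 3.33 ± 0.555 for wt and 2.01 ± 0.465 for P278KY (SD, n = 6 each), again without overlap. These levels rest on few reads: 1457 expected counts over the 6 wt libraries and 792 over the 6 P278KY libraries. Over all genes, 22 of 17994, or 0.122%, had every P278KY library below every wt library on CPM, a share that says nothing of Kcng4, which was picked for it.

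By labelled sex the Kcng4 difference was -1.02 ± 0.16 in females and -0.41 ± 0.16 in males (log2, SE), and the female value minus the male value was -0.61 ± 0.22. These too are descriptions, from the contrast that chose the gene. Without female wt 14 the wt mean was 6.61 ± 0.733 CPM (SD, n = 5). Without female wt 14 and male wt 19 it was 6.36 ± 0.533 CPM (SD, n = 4), and the log2 differences became -0.59 over both sexes, -0.82 in females and -0.36 in males. Because whole cord was sequenced, fewer cells that express a gene and less of its RNA per cell cannot be told apart.

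Markers of motor neurons and of large fast-firing neurons leaned the same way without a call. Those of fast motor neurons, where Kcng4 is known, did not lean clearly either way, as given below. Of 7 motor neuron markers tested, 6 were fitted lower in P278KY and 0 passed the threshold, with a median of -0.29 on the log2 scale against -0.0064 over all genes. Slc5a7, the 1 fitted higher, had 0.18 ± 0.14 (SE). Their summed level was 249.2 to 437 CPM in wt and 243 to 313 CPM in P278KY. The sum was highest in female wt 14, the library with the sensory ganglion markers, where Prph alone was at 192 CPM. Chat, which makes acetylcholine, was at 12.1 ± 2.91 CPM in wt and 10.02 ± 2.41 CPM in P278KY (SD, n = 6 each), with a log2 difference of -0.29 ± 0.16 (SE). The groups overlapped for Chat. Lhx4, a motor neuron transcription factor, had -0.28 ± 0.09, and Mnx1, another, -0.30 ± 0.16. Of 6 genes of large fast-firing neurons, 5 were fitted lower, and the sums were 2813 to 3881 CPM in wt and 2597 to 3147 CPM in P278KY. The neurofilament genes Nefh and Nefm had -0.29 ± 0.10 and -0.25 ± 0.09. The part of these cells in the Kcng4 difference was not tested.

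Of the 4 fast motor neuron markers 3 were fitted higher in P278KY and 1 lower, with a median of 0.027 on the log2 scale. Among those fitted higher only Dlk1 had a difference larger than its SE. Dlk1 was at 32.0 ± 5.58 CPM in wt and 40.3 ± 12.8 CPM in P278KY, a log2 difference of 0.31 ± 0.20 (SE). It was highest in male P278KY 3, at 59.5 CPM, and next in female P278KY 7, at 45.0 CPM. These libraries also had the highest sums of the skeletal muscle list given below, at 2783 and 1509 CPM. Dlk1 was lowest in female P278KY 4, at 21.2 CPM, where the muscle sum was 351 CPM. The part of muscle RNA in the Dlk1 level was not tested. Mmp9, a protease of fast motor neurons, had 0.05 ± 0.33, and Calca, the gene of the peptide CGRP, which sensory neurons also make, had -0.50 ± 0.34. None of the 4 passed the threshold (edgeR, Benjamini-Hochberg). Slow and gamma motor neuron markers split 3 and 3, and the pan-neuronal sum was 2976 to 3596 CPM in wt and 3026 to 3730 CPM in P278KY.

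Lists of cells outside the cord varied widely. All 10 skeletal muscle genes were fitted higher in P278KY, with sums of 14.7 to 1061 CPM in wt and 75.8 to 2783 CPM in P278KY. All 7 Schwann cell genes were fitted lower, with 213 to 2449 and 68.8 to 1793 CPM. All 8 sensory ganglion genes tested were fitted lower. The sums over all 10 genes of that list were 8.30 to 297 CPM in wt and 6.90 to 11.7 CPM in P278KY, and Mrgprd and Prdm12 were at 0 in at least 1 library. Without female wt 14, the library with 297 CPM, Kcng4 differed by -0.59 on the log2 scale, and in the 5 other wt libraries it was at 5.62 CPM or more. No gene of these 3 lists passed the threshold.

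Of the 7 members other than Kcng4, 0 were called for genotype by edgeR or DESeq2, and 0 had an unadjusted p under 0.05. Over all 17994 genes edgeR called 1 gene, or 0.00556%, and 4.09% had an unadjusted p under 0.05. The gene called was Fgf21, named here after its value was seen. Of the 7 members 4 were fitted lower and 3 higher, with a median of -0.10 on the log2 scale, against 53.1% of genes fitted lower and a median of -0.0064 over all genes.

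**Figure D2:**
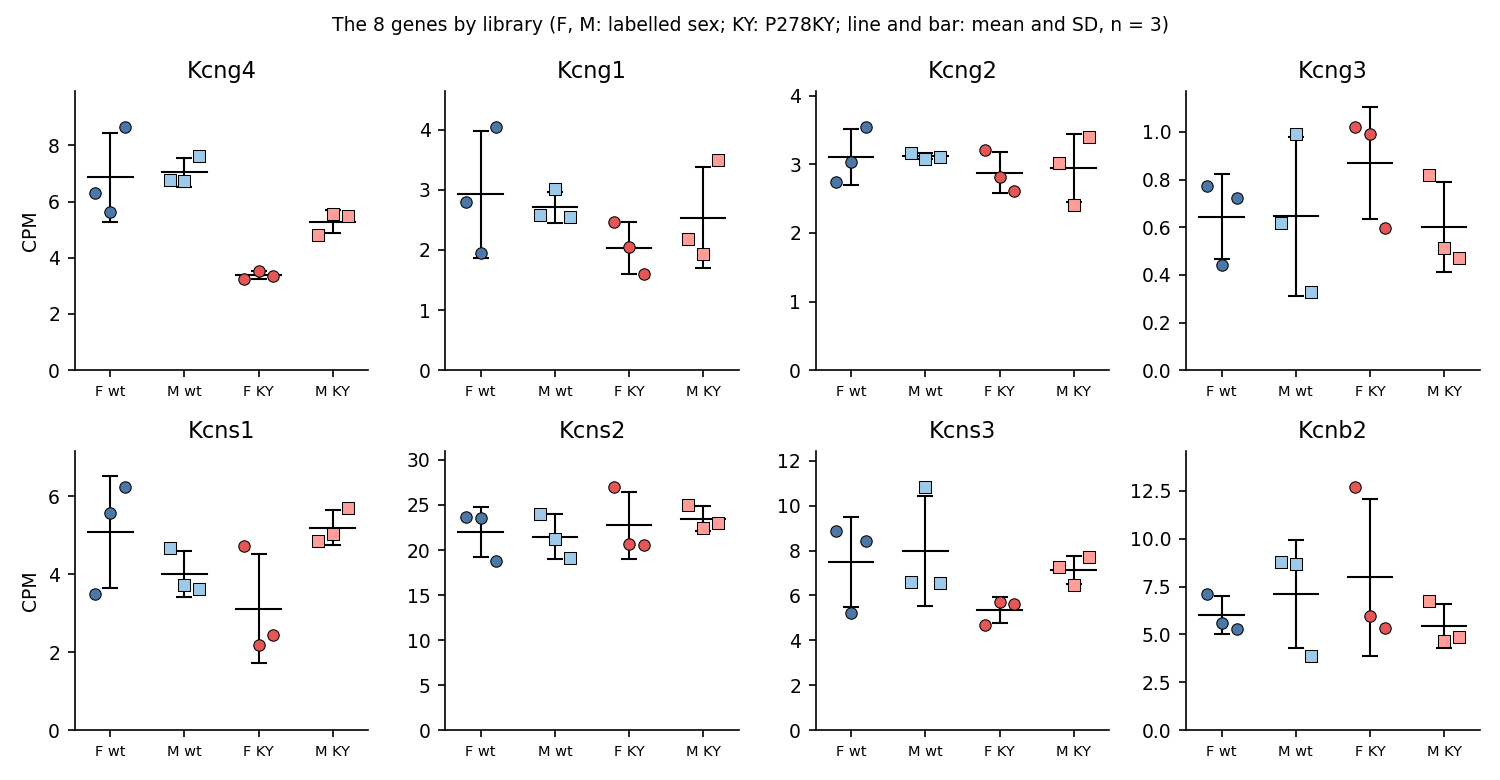
Level of the 8 genes in CPM (vertical axes from 0, each on its own scale) by labelled sex (F, M) and genotype (KY is P278KY); points are libraries, lines and bars the mean and SD of 3. Only Kcng4 has all 6 P278KY libraries below all 6 wt libraries, and 1 P278KY library stands apart for Kcnb2, at 12.7 CPM.

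Kcng1, the gene of Kv6.1, lies on chromosome 2 from 168260117 to 168281736. In wt it was at 2.80, 1.94 and 4.05 CPM in females 1, 2 and 14, and at 2.58, 3.01 and 2.54 CPM in males 6, 9 and 19. In P278KY it was at 2.46, 2.04 and 1.603 CPM in females 4, 7 and 10, and at 2.17, 1.94 and 3.50 CPM in males 3, 5 and 13. The groups overlapped, and female wt 14 was highest. The log2 difference was -0.31 ± 0.21 (SE; edgeR adjusted p = 0.9999), and -0.18 ± 0.20 without the 2 libraries whose sex marks went against their labels.

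Kcng1 also varied in the length that the files give for the gene, which is a mean over its transcripts weighted by their estimated use. It was 4089 bases in all 6 wt libraries. In P278KY it was 4089 bases in 2 of 6 libraries, female 7 and male 3, and reached down to 3410 bases, with a mean of 3713 ± 312 (SD, n = 6). By exact permutation of genotype over all 924 splits the two-sided p was 0.0606, which is the smallest p that 8 libraries tied at 4089 bases allow, so this test could not pass 0.05. Adjusted over the 4 genes whose length varied, this exact p was 0.242. The transcript estimates of a gene at 1.603 to 4.05 CPM rest on few reads. The lengths of Kcng2, Kcns3 and Kcnb2 varied with exact p = 0.351, 0.758 and 0.446, and those of Kcng4, Kcng3, Kcns1 and Kcns2 were the same in every library.

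Kcng2, the gene of Kv6.2, had overlapping genotypes. It was at 2.74 to 3.54 CPM in wt and 2.41 to 3.40 CPM in P278KY, with means of 3.11 ± 0.259 and 2.91 ± 0.371 CPM (SD, n = 6 each) and a log2 difference of -0.10 ± 0.11 (SE). It overlaps an antisense gene, Gm26676, over 3271 bases, and that gene had at most 7 counts in a library. Kcng3, the gene of Kv6.3, was the lowest member and the only one of the 4 Kcng genes fitted higher in P278KY. It was at 0.327 to 0.991 CPM in wt and 0.472 to 1.02 CPM in P278KY, with a log2 difference of 0.18 ± 0.29. Kcng3 overlapped between genotypes.

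Kcns3, the gene of Kv9.3, had the smallest p for genotype among the 7. In wt it was at 8.88, 5.21 and 8.44 CPM in females 1, 2 and 14, and at 6.58, 10.8 and 6.53 CPM in males 6, 9 and 19. In P278KY it was at 4.68, 5.73 and 5.63 CPM in females 4, 7 and 10, and at 7.25, 6.46 and 7.72 CPM in males 3, 5 and 13. Only female P278KY 4 lay below every wt library. The log2 difference was -0.32 ± 0.16 (SE; edgeR adjusted p = 0.9999) and -0.34 ± 0.17 without the 2 libraries of doubtful sex label.

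Kcns2, the gene of Kv9.2, was the most abundant of the 7 silent subunit genes on TPM. On CPM it was at 18.8 to 24.0 CPM in wt and 20.6 to 27.0 CPM in P278KY, with means of 21.7 ± 2.39 and 23.1 ± 2.53 CPM (SD, n = 6 each). Its log2 difference was 0.09 ± 0.09 (SE), and -0.00087 without the same 2 libraries.

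Kcns1, the gene of Kv9.1, known from sensory neurons, was fitted in opposite directions in the 2 sexes. In females it was at 3.48, 5.56 and 6.24 CPM in wt 1, 2 and 14 and at 4.72, 2.198 and 2.45 CPM in P278KY 4, 7 and 10, with 2 of the 3 P278KY females below all wt females. In males it was at 4.67, 3.72 and 3.62 CPM in wt 6, 9 and 19 and at 4.85, 5.04 and 5.70 CPM in P278KY 3, 5 and 13. All 3 P278KY males lay above all 3 wt males on CPM, as 5.69% of genes did, but on TPM only 1 of the 3 did. The log2 difference was -0.71 ± 0.29 in females (SE; edgeR adjusted p = 0.423) and 0.38 ± 0.29 in males (adjusted p = 0.961). Without the 2 libraries of doubtful sex label it was -0.53 ± 0.33 in females and 0.30 ± 0.33 in males.

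The difference between these Kcns1 effects, female minus male, was -1.08 ± 0.41 (SE; edgeR adjusted p = 0.375) and was not called. It was -0.83 ± 0.46 (adjusted p = 0.494) without the 2 doubtful libraries. With each library left out in turn it was between -1.51 and -0.88, with an adjusted p from 0.14 to 0.642. Unadjusted p under 0.05 was reached by 10.7% of genes in females and by 10.9% in the interaction, and by 1 of the 7 members, Kcns1, in each. Pooled over sex, Kcns1 had -0.16 ± 0.25.

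Values by sex are given for further members. In females Kcns3 had -0.49 ± 0.23, Kcng1 -0.52 ± 0.30 and Kcnb2 0.41 ± 0.37 (log2, SE). In males Kcns3 had -0.16 ± 0.23, Kcng1 -0.09 ± 0.29 and Kcnb2 -0.39 ± 0.37. Without the 2 doubtful libraries these were -0.39 ± 0.25, -0.22 ± 0.30 and 0.33 ± 0.36 in females, and -0.29 ± 0.25, -0.14 ± 0.30 and -0.69 ± 0.35 in males, for Kcns3, Kcng1 and Kcnb2 in that order. The female effect minus the male effect was 0.80 ± 0.53 for Kcnb2 and 0.51 ± 0.59 for Kcng3. Without the same libraries it was 1.02 ± 0.51 and 0.93 ± 0.58, where both exceeded Kcns1 in size. With each library in turn left out of the full set, it ranged from 0.29 to 1.09 for Kcnb2 and from 0.074 to 0.84 for Kcng3. The Kcnb2 effect in females then ranged from -0.095 to 0.63. Kcnb2 was at 12.7 CPM in female P278KY 4, against 5.94 and 5.31 CPM in P278KY females 7 and 10. By edgeR 0 of the 7 were called in females, in males or in the interaction, against 0% of all genes in each, and DESeq2 also called 0 of them while calling 1.64%, 0.189% and 1.55% of all genes. In males 0 of the 7 had an unadjusted p under 0.05, against 4.91% of all genes.

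**Figure D3:**
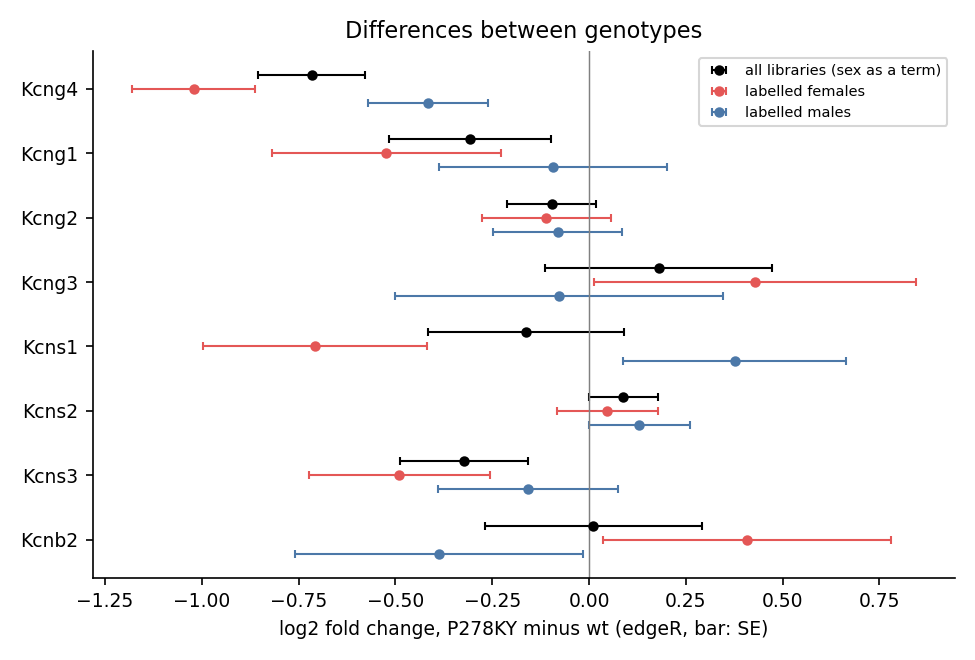
Fitted log2 fold change, P278KY minus wt (horizontal axis; points with SE bars), for each gene over all libraries with sex as a term (black), in labelled females (red) and in labelled males (blue). Kcng4 is below 0 in all 3 and Kcns1 lies at -0.71 in females and 0.38 in males; Kcng4 was chosen for this contrast.

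Kcnb2 encodes Kv2.2, which forms working channels and is a partner of the silent subunits. In wt it was at 7.14, 5.62 and 5.27 CPM in females 1, 2 and 14, and at 8.78, 8.67 and 3.87 CPM in males 6, 9 and 19. In P278KY it was at 12.7, 5.94 and 5.31 CPM in females 4, 7 and 10, and at 6.74, 4.67 and 4.85 CPM in males 3, 5 and 13. Female P278KY 4 stood apart above the rest. The log2 difference was 0.011 ± 0.28 (SE), and it turned to -0.26 ± 0.21 without that library. Its 2 rows held fractional counts that added to whole numbers in each library, and they were summed here; ENSMUSG00000090498 took 29.5% to 39.9% of the sum.

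Amigo1, whose protein accompanies Kv2 channels, is not a member and is given beside Kcnb2. It was at 43.5 ± 3.64 CPM in wt and 40.2 ± 2.65 CPM in P278KY (SD, n = 6 each), with a log2 difference of -0.11 ± 0.07 (SE). Vapa, which ties Kv2 clusters to the endoplasmic reticulum, had 0.10 ± 0.03. Neither was called.

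Levels of different genes can be compared on TPM. Over the 12 libraries Kcns2 was the highest member, with 9.17 ± 1.10 TPM (SD). Kcns3 came next at 4.397 ± 1.13 TPM, with no overlap with Kcns2, and lay above Kcns1 in 10 of 12 libraries. Kcns1 at 2.95 ± 0.875, Kcnb2 at 2.85 ± 0.979, Kcng4 at 2.67 ± 0.845 and Kcng2 at 2.35 ± 0.456 TPM could not be set in order, since each lay above the next in 6 or 7 of 12 libraries. Kcng1 at 1.18 ± 0.327 TPM was below Kcng2 in 12 of 12, and Kcng3 at 0.374 ± 0.130 TPM was below every other member without overlap.

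**Figure D4:**
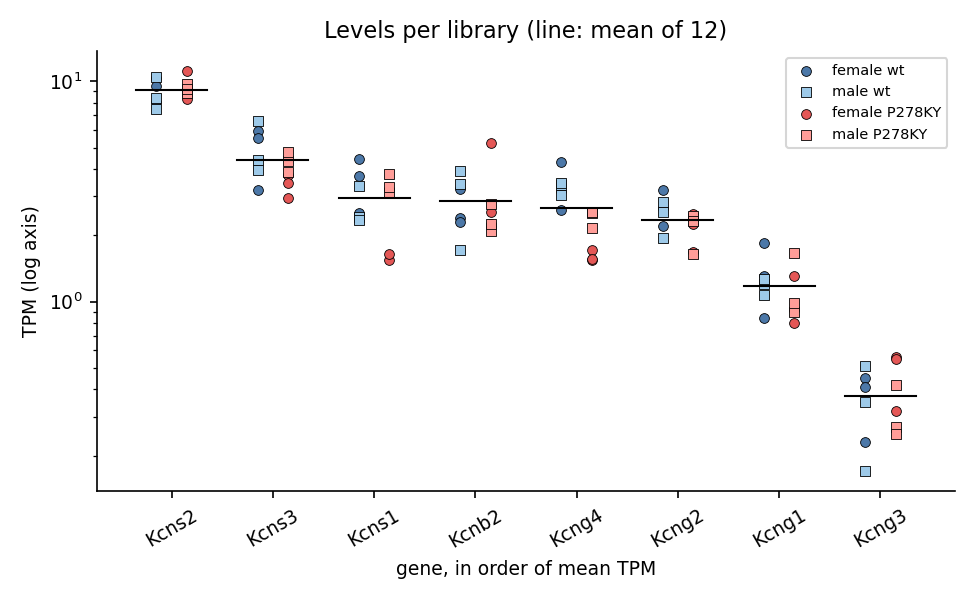
Level in TPM (vertical log axis) of the 8 genes in each of the 12 libraries, in order of mean TPM (line); color and shape give genotype and labelled sex. Kcns2 lies highest, Kcng3 lowest, and Kcns1, Kcnb2, Kcng4 and Kcng2 overlap.

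Together the 7 silent subunit genes had 24.6 ± 2.71 TPM in wt and 21.6 ± 2.52 TPM in P278KY (SD, n = 6 each). Without Kcng4 the sum was 21.3 ± 2.52 TPM in wt and 19.6 ± 2.28 TPM in P278KY, a difference of less than 1 SD. Kcng4 made up 13.6% ± 2.21 of the silent subunit TPM in wt and 9.29% ± 1.71 in P278KY. The sums count transcripts in whole cord, where different subunits may come from different cells.

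The comparison of males with females did not enter the choice of Kcng4. In P278KY the 3 labelled females lay below all 3 males for Kcng4, Kcns1 and Kcns3, 3 of the 8 members, as 6.85% of all genes did. Sums of motor neuron markers split the same way in P278KY, at 243 to 280 CPM in females and 284 to 313 CPM in males. So did fast motor neuron sums, at 99.9 to 130 and 148 to 173 CPM. Sums of large fast-firing neurons did too, at 2597 to 2752 and 2871 to 3147 CPM. Schwann cell sums split the other way, at 1178 to 1793 and 68.8 to 613 CPM, and the other marker lists overlapped. The part of these cells in the sex differences was not tested. In wt, females 1 and 2 lay below all 3 labelled males for Kcng4, and female 14, whose sex marks went against its label, lay above them. Male 19, whose marks also went against its label, was at 7.63 CPM, above males 6 and 9 at 6.77 and 6.73 CPM. By sex marks instead of labels the wt sexes therefore overlapped. The log2 difference, male minus female with genotype as a term, was 0.34 ± 0.14 for Kcng4 (SE; edgeR adjusted p = 0.9998). With each library in turn left out of the full set, that adjusted p was from 0.553 to 0.99998. Without the 2 doubtful libraries the log2 difference was 0.46 ± 0.11 for Kcng4 (adjusted p = 0.711), 0.40 ± 0.25 for Kcns1 and 0.38 ± 0.17 for Kcns3.

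In the sex comparison edgeR called 0 of 8 members and 0% of all genes, and DESeq2 called 0 of 8 members and 0.15% of all genes. With all libraries, 1 member, Kcng4, had an unadjusted p under 0.05, against 4.6% of all genes. Without the 2 doubtful libraries edgeR called 0.055% of all genes and 0 members. The other members had -0.27 to 0.25 on the log2 scale with all libraries.

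Across the 12 libraries some members varied together. Pearson's r of log2 CPM was 0.76 for Kcng1 with Kcng2 and 0.74 for Kcng3 with Kcnb2, and after removal of the 4 group means it was 0.75 and 0.74. Kcns2 and Kcnb2 had 0.68, and 0.84 after that removal. Kcng4 had 0.64 with Kcng1 and 0.66 with Kcns3, and 0.58 and 0.30 after it. With Kcns2 Kcng4 went the other way, at -0.40 and -0.74. These values are descriptions over 12 libraries that share depth, tissue composition and normalization within each library.

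The genes whose pattern over the 12 libraries was most like that of Kcng4, of 14450 genes at 1 CPM or more, were Apip (r = 0.91), Alg5 (0.88), Ncbp1 (0.86), Car7 (0.85) and Lrrc73 (0.85). Apip encodes an enzyme of the methionine salvage pathway and Car7 a cytosolic carbonic anhydrase of neurons. Car7 was at 4.88 ± 0.478 CPM in wt and 3.65 ± 0.821 CPM in P278KY, and Apip at 10.3 ± 0.884 and 8.63 ± 0.833 CPM (SD, n = 6 each). Their lower means in P278KY follow from the choice by likeness to Kcng4. Neither was called for genotype (edgeR adjusted p = 0.9999 for each). After removal of the group means the order was Atp7a (0.96), Gins4 (0.95), Dgkz (0.94), Narg2 (0.94) and Dkk3 (0.94), with no gene in both lists. The top of 14450 values over 12 libraries is high by selection.

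The other potassium channel genes were taken from 10 lists of 85 genes in the files, of which 77 were tested. For genotype edgeR and DESeq2 each called 0 of the 77. Of the 77, 55 were fitted lower in P278KY and 22 higher, with a median of -0.05 on the log2 scale against -0.0064 over all genes. An unadjusted p under 0.05 was reached by 6 lower and 3 higher genes, against 1.69% and 2.4% of all genes.

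**Figure D5:**
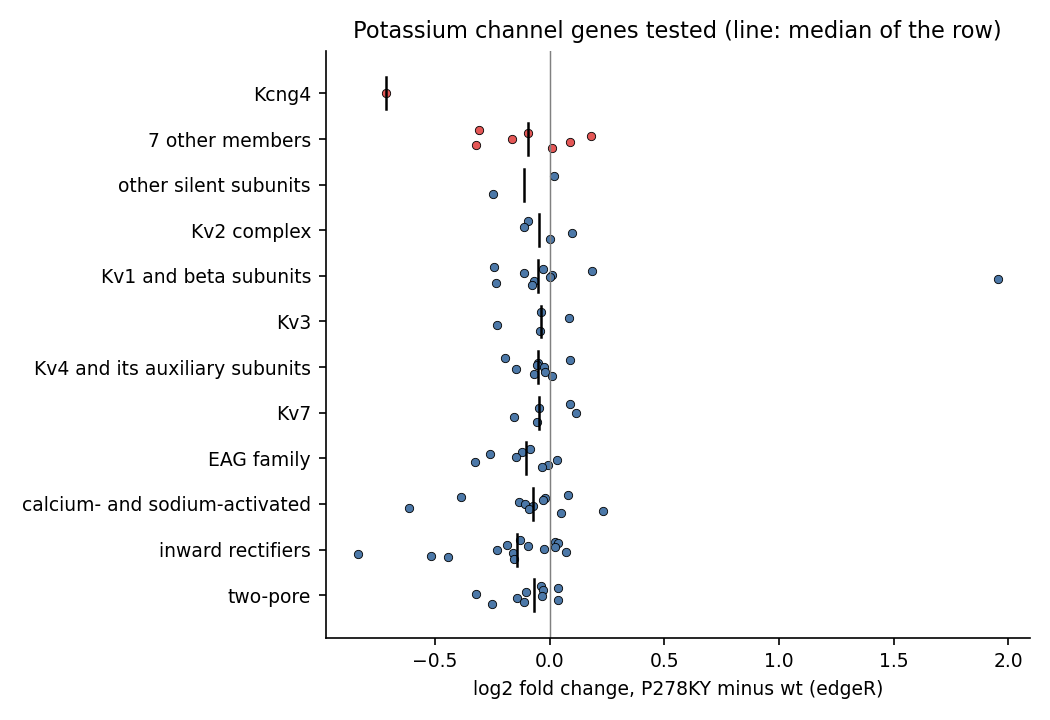
Fitted log2 fold change, P278KY minus wt (horizontal axis), of every tested potassium channel gene; each point is a gene, rows are families and the black line is the median of a row. Kcng4, chosen for this contrast, is at -0.72, Kcna7 is at 1.95 and most rows have medians slightly below 0.

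Inward rectifiers, which set the resting potential, had the lowest family median apart from that of Kcng4 itself, at -0.14 over 14 genes, 10 of them fitted lower. Kcnj14, the gene of Kir2.4, known from motor neurons, was at 7.57, 6.06 and 8.03 CPM in wt females 1, 2 and 14, and at 7.31, 10.1 and 7.82 CPM in wt males 6, 9 and 19. In P278KY it was at 3.56, 5.94 and 5.85 CPM in females 4, 7 and 10, and at 5.67, 6.06 and 5.61 CPM in males 3, 5 and 13. The groups only met, at 6.06 CPM. Its log2 difference was -0.52 ± 0.14 (SE; edgeR adjusted p = 0.9999), the smallest p of the 77, and it was not called. Kcnj16 had -0.16 ± 0.07.

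Kv3 channels let neurons fire fast. Of 4 Kv3 genes 3 were fitted lower and 0 were called. Kcnc2 had 0.09 ± 0.10. Among 10 tested genes of the Kv1 family, which lines axons, Kcna1 had -0.24 ± 0.11. Kcna7, a channel of muscle, had 1.95 ± 0.73 at 0.150 ± 0.164 CPM in wt and 0.600 ± 0.655 CPM in P278KY, and the muscle list was fitted higher in the same genotype, as given above. Scn4a, the sodium channel of skeletal muscle, had 2.46 ± 0.92. The part of muscle RNA in either was not tested.

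In the remaining families 0 genes were called. Of 9 Kv4 genes and auxiliary subunits 7 were fitted lower, with -0.15 ± 0.06 for Kcnip3 and -0.19 ± 0.11 for Kcnd1. Of 8 EAG genes 7 were fitted lower, with -0.12 ± 0.06 for Kcnh2 and -0.33 ± 0.20 for Kcnh6. Of 5 Kv7 genes 3 were fitted lower, with 0.11 ± 0.09 for Kcnq3. Of 11 calcium- and sodium-activated channel genes 8 were fitted lower, with 0.23 ± 0.10 for Kcnt2 and -0.11 ± 0.05 for Kcnn2. Of 10 two-pore genes 8 were fitted lower, with -0.25 ± 0.21 for Kcnk13 and -0.14 ± 0.13 for Kcnk9. The silent subunit genes outside the Kcng and Kcns families had 0.02 ± 0.07 for Kcnf1 and -0.25 ± 0.16 for Kcnv1, while Kcnv2, at 0.199 ± 0.0751 CPM in wt and 0.217 ± 0.127 CPM in P278KY, did not pass the filter on low counts.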

How the data were processed

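RNA from 12 spinal cords was sequenced as poly(A)-selected stranded libraries, per the labels' protocols. The authors deposited expected counts, TPM, FPKM (not used) and transcript lengths per gene, with RSEM 1.2.12 and Bowtie2 2.2.0 named in the submitters' processing notes. Which genome build and gene annotation they used, and whether counting used strand, is not given in the sources used here. Positions and overlaps come from GENCODE M21 on GRCm38. Members and lists were chosen with earlier results of these data known. Here the 2 Kcnb2 rows were summed, counts were rounded and filtered (filterByExpr over 4 groups), scaled by TMM and fitted with edgeR 4.0.16 (robust quasi-likelihood) in R 4.3.3, with sex and genotype as terms or a mean per group. Calls had a Benjamini-Hochberg adjusted p under 0.05 over 17994 genes. SE is the log2 change divided by the square root of F. The common biological coefficient of variation was 23.9%. Log2 CPM used a prior count of 2. DESeq2 1.42.0, limma 3.58.1 on counts or on log2(TPM + 1 or + 0.1), RLE or no scaling, no filter or a CPM above 1 in 6 libraries, no sex term and omission of libraries were alternatives. In simulated data of 17994 genes, 6 libraries against 6, 50 genes with a mean CPM above 1 were changed at each fold. The fit recovered 42% of genes changed 1.3-fold, 86% at 1.6-fold, 86% at 2-fold and 94% at 4-fold, with 10 false calls. These shares depend on how many genes were changed, and do not give the chance of a call for a member here. Named are all members, Amigo1, per channel list up to 2 genes with the smallest p, per marker list up to 3, and the 5 genes most like Kcng4 by each measure. Of 182 list genes, 180 matched the files by symbol. Some genes named by this rule are not reported here.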

Additional observations from a re-analysis of the deposited data

Results flagged for a closer look

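Kcnb2 was at 12.7 CPM in female P278KY 4, while the other 5 P278KY libraries lay between 4.67 and 6.74 CPM. The gap to the nearest of them was 0.742 of the whole range of the 6, above the critical value of 0.625 of Dixon's test. With 24 groups of values examined, chance gives about 1 in 20. Both Kcnb2 rows were high in that library, with 144 and 217 expected counts. Its cause was not tested.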

How the results depend on the processing

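Kcng4 kept its direction for genotype in all alternatives run, between -0.77 and -0.53 on the log2 scale. Where libraries were left out, the lack of overlap between its genotypes largely fixed that direction. In every alternative run, 0 of the tested members other than Kcng4 were called for genotype, within a sex or in the interaction. Kcng4 is left out of that count because it was chosen on genotype. For sex 0 of the tested members were called, Kcng4 included, and for genotype 0 of the other channel genes. Over all genes, genotype calls went from 1 to 0 with a CPM above 1 in 6 libraries and with both sex-discordant libraries left out, to 33 with DESeq2 and to 2 without a sex term; with each library left out they ranged from 1 to 3, with 3 without female wt 2 and 2 without female P278KY 10. Small differences turned sign. For Kcnb2 the genotype difference was -0.20 with both discordant libraries left out, -0.0070 with library totals, -0.0062 and -0.0034 on log2(TPM + 0.1) and log2(TPM + 1), and -0.018 for the row ENSMUSG00000092083 when the 2 rows were kept apart, an alternative chosen after seeing the data; it ranged from -0.26 to 0.13 with each library left out, and was below 0 without female P278KY 4 (-0.26), male wt 19 (-0.087), female wt 14 (-0.073), female wt 2 (-0.059) or male P278KY 3 (-0.017). For Kcns2 it was -0.00087 with both discordant libraries left out. For sex, Kcng2 had -0.069 and -0.051 on log2(TPM + 0.1) and log2(TPM + 1) and -0.032 to 0.074 with each library left out, and Kcns2 had -0.0099 with library totals, -0.049 and -0.045 on the same TPM scales and -0.033 to 0.063 with each library left out. For sex, Kcng1 ranged from -0.057 (without male P278KY 13) to 0.26 and Kcnb2 from -0.28 to 0.11 (without female P278KY 4) with each library left out. Why these turned was not tested. No paired analysis was possible because mouse numbers do not recur between groups. The depth limits the members: Kcng4 had 92 to 327 expected counts in a library, and Kcng3 did not pass the stricter filter.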
